A study of Mus musculus with 12 samples.

Results

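The 8 genes described here encode enzymes of triglyceride synthesis and were followed in eWAT, the epididymal fat pad of male mice, across 4 ambient temperatures. The genes are Gpam, Agpat2, Agpat3, Agpat5, Lpin1, Lpin2, Dgat1, and Dgat2, chosen by name for their place in the pathway, at a time when earlier results of these data were known, and they are 8 of 14860 genes tested. Each was found by its symbol in the platform annotation of the deposited table, where each had a single probe set. C57BL/6J mice 7 to 8 weeks old were kept for 5 weeks at 30°C, which is thermoneutral for mice, at 4°C, at –10°C, or at –10°C/–20°C. The cold groups passed through 1 week at 18°C and then 4°C, the freezing groups spent their final 3 weeks at the temperature that names them, and the coldest group, which the labels shorten to –20°C, had –20°C by day and –10°C by night. Total RNA of eWAT was hybridised to 12 Mouse Exon 1.0 ST arrays of Affymetrix, with 3 arrays in each group. The labels number the arrays as biological replicates without saying which mouse or litter each came from, and the p-values below rest on the spread among the arrays alone.

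Triglyceride is assembled on glycerol 3-phosphate. A glycerol 3-phosphate acyltransferase adds the first fatty acid, an acylglycerophosphate acyltransferase adds the second and makes phosphatidate, a lipin removes the phosphate to give diacylglycerol, and a diacylglycerol acyltransferase adds the last fatty acid. Phosphatidate and diacylglycerol are also the branch points to phospholipids. In fat tissue the pathway fills the lipid droplet, and it can re-esterify fatty acids that lipolysis has set free. Loss of AGPAT2 in people or of Lpin1 in mice leaves little adipose tissue.

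Values are log2 RMA values, and 1 unit is a doubling of signal. The levels of different probe sets cannot be set against each other, so that only changes are compared between genes. Background was set at a log2 value of 4.52, below which 95% of 718 olfactory receptor genes lay, and all 8 genes were above it on all 12 arrays. Array medians lay between 5.19 and 5.44. A change is called where the adjusted p of limma (Benjamini-Hochberg over the 14860 genes) is under 0.05. Array names in the study's materials have 2 forms, 4 arrays in the first (replicates 1 and 2 of 30°C and of 4°C) and 8 in the other, with no statement of what the forms stand for.

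Each of the 4 steps of the pathway had at least 1 gene that rose with cold, whereas Agpat5 and Lpin2 did not pass the test with any cold group. With 4°C, 5 of the 8 genes rose (Gpam, Agpat2, Lpin1, Dgat1, and Dgat2), against 2.1% of all genes called higher in that comparison. With –10°C, 5 of 8 rose (Gpam, Agpat2, Agpat3, Dgat1, and Dgat2), against 5.3% of all genes. With –10°C/–20°C, 6 of 8 rose, all but Agpat5 and Lpin2, against 7.19% of all genes. From here on, 3 values in a row belong to the cold groups from 4°C down to –10°C/–20°C. None of the 8 was called lower in any of the 6 comparisons between groups, against 0.942%, 3.03%, and 11% of all genes in the 3 comparisons with 30°C. All 3 arrays of the cold group were above all 30°C arrays for 5, 5, and 6 of the 8 genes, against 9.56%, 15%, and 11.7% of all genes. Their median log2 fold changes were 1.01, 0.78, and 1.42, where the medians over all genes were 0.01, 0.03, and -0.03. The 3 comparisons share their 30°C arrays, and the values are given side by side. In the moderated F-test over the 4 groups, 6 of the 8 passed, against 17.1% of all genes. Agpat2 ranked 2 of 14860 in that test, Dgat2 ranked 18, Gpam 19, Lpin1 28, Dgat1 132, and Agpat3 2233.

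**Figure D1:**
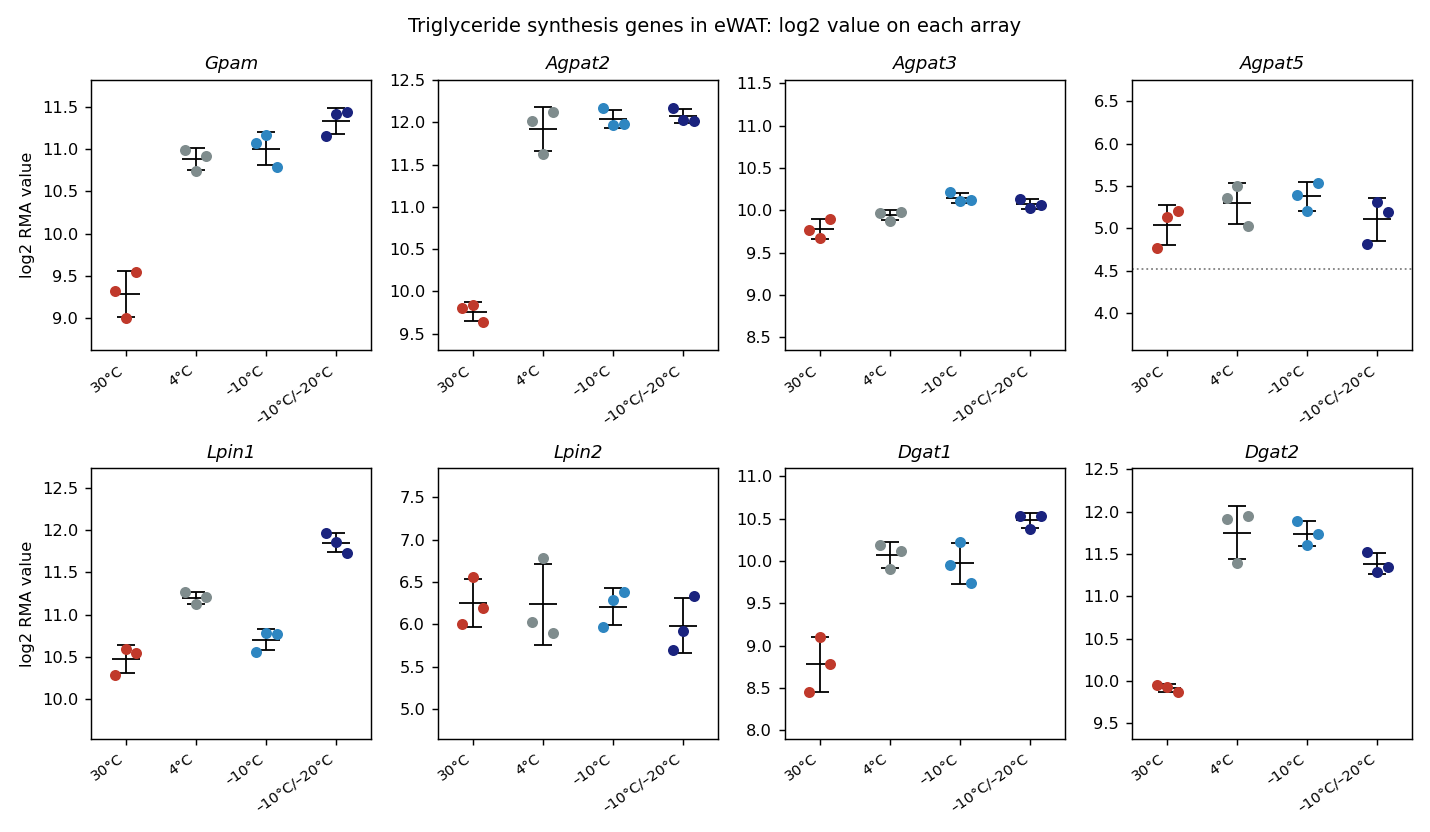
Log2 RMA value (vertical axis, each panel spanning the same number of log2 units) of each of the 8 genes on the 12 arrays, by temperature group (horizontal axis), with black bars for the group mean and SD (n = 3) and a dotted line at the background of 4.52 where it falls in range. Gpam, Agpat2, Dgat1, and Dgat2 have all 9 cold arrays above all 30°C arrays, Lpin1 is high with 4°C and –10°C/–20°C and near its 30°C values with –10°C, and Agpat5 and Lpin2 overlap throughout.

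Promoter sequence is shown for the 3 genes on which the comparison of patterns turns, Gpam, Agpat2, and Lpin1. The RefSeq promoter table for GRCm38.p6 matched 5 of the 8 genes (Gpam, Agpat2, Agpat3, Lpin1, and Lpin2) in 8 windows of 250 bases before an annotated start. Agpat5, Dgat1, and Dgat2 were not matched. Both strands of each window were searched for AGGTCA, the half-site of many nuclear receptors, CCAAT, known as the NF-Y box, GGGCGG, the GC box of Sp1 and its relatives, CACGTG, the E-box, TCACNCCAC, a core of the sterol regulatory element, and TTGCNNAA, the form bound by C/EBP factors. Of all 32851 windows of that length in the table, 14.0% hold AGGTCA, 33.8% CCAAT, 32.7% GGGCGG, 6.02% CACGTG, 1.05% TCACNCCAC, and 9.56% TTGCNNAA. A match is a description of the letters and not of binding.

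Gpam encodes the mitochondrial glycerol 3-phosphate acyltransferase, which commits acyl chains to glycerolipids. Its table entries give starts at 2 places on the minus strand of chromosome 19, with the windows chr19:55127239-55127488 and chr19:55099478-55099727. The capitals mark the motif matches. In the upstream window these are CCAAT read from the other strand, 74 bases before the start. In the downstream window they are AGGTCA, 196 bases before the start, and GGGCGG read from the other strand, 16 bases before it.
Gpam, upstream start: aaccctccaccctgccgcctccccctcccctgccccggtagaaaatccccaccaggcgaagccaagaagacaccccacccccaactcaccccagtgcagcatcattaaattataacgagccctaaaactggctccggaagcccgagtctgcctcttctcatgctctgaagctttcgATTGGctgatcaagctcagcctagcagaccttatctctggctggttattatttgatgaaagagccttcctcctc
Gpam, downstream start: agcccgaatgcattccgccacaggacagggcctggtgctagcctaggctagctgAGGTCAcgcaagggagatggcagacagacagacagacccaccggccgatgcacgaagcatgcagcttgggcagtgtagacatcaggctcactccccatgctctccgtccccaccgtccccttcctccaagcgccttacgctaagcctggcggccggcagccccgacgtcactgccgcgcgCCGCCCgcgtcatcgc

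On the 30°C arrays Gpam had log2 values of 9.32, 9.001, and 9.54. With 4°C they were 10.99, 10.74, and 10.92, and with –10°C 11.06, 11.16, and 10.79. With –10°C/–20°C they were 11.16, 11.41, and 11.43. All cold arrays were above all 30°C arrays, and the cold groups overlapped except that the 3 arrays of –10°C/–20°C were all above those of 4°C. Gpam rose 3.02-fold with 4°C (log2 fold change 1.59 ± 0.15, SE, limma adjusted p = 0.000607), 3.29-fold with –10°C (1.72 ± 0.15, adjusted p = 0.000349), and 4.13-fold with –10°C/–20°C (2.05 ± 0.15, adjusted p = 3.03e-05). The means rose in the order of falling temperature, and the steps between the cold neighbours did not pass the test, at 0.12 (adjusted p = 0.999) and 0.33 (adjusted p = 0.243). When name form entered the fit as a block, the step from 4°C to –10°C was -0.02. With –10°C/–20°C against 4°C the difference was 0.45, with a 95% interval of 0.12 to 0.79 and an adjusted p of 0.0909. The increase with 4°C was 77.8% of that with –10°C/–20°C on the log2 scale.

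Agpat2 encodes the acylglycerophosphate acyltransferase best known for its need in fat storage. It lies on the minus strand of chromosome 2, and its window is chr2:26604418-26604667. The capitals mark 2 overlapping matches of GGGCGG, which begin 42 and 37 bases before the start. G and C make up 69.2% of this window, where the median of all windows is 52.4%.
Agpat2: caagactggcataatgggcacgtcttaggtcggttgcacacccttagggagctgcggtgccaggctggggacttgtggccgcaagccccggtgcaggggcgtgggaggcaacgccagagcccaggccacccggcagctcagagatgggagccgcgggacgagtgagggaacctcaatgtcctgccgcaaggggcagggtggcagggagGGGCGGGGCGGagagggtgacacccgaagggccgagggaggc

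Agpat2 had log2 values of 9.80, 9.84, and 9.63 on the 30°C arrays. With 4°C they were 12.01, 11.63, and 12.12. With –10°C they were 12.17, 11.97, and 11.99, and with –10°C/–20°C 12.17, 12.03, and 12.02. The 9 cold arrays lay within a narrow band, and the lowest of them was far above the highest 30°C array. The increase was 4.46-fold with 4°C (log2 fold change 2.16 ± 0.13, SE, limma adjusted p = 4.31e-05), 4.86-fold with –10°C (2.28 ± 0.13, adjusted p = 2.39e-05), and 4.97-fold with –10°C/–20°C (2.31 ± 0.13, adjusted p = 6.84e-06). Between the cold groups the differences were 0.12 for –10°C over 4°C (95% interval -0.16 to 0.40) and 0.03 for –10°C/–20°C over –10°C (-0.25 to 0.31), and neither passed the test. With 4°C the increase was already 93.3% of that with –10°C/–20°C. Of all genes, 99.9% had a lower log2 fold change with 4°C.

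Agpat3 and Agpat5 encode acyltransferases of the same step, and Agpat3 is better known for phospholipids. Agpat3 had log2 values of 9.77, 9.67, and 9.90 with 30°C and 9.97, 9.87, and 9.98 with 4°C. With –10°C they were 10.22, 10.10, and 10.12, and with –10°C/–20°C 10.13, 10.02, and 10.06. The freezing groups were wholly above 30°C, by far less than for Agpat2, and the 4°C arrays overlapped with 30°C. Agpat3 rose 1.29-fold with –10°C (log2 fold change 0.37 ± 0.08, limma adjusted p = 0.0215) and 1.22-fold with –10°C/–20°C (0.29 ± 0.08, adjusted p = 0.0344). With 4°C it was 0.16 higher on the log2 scale (95% interval -0.02 to 0.35, adjusted p = 0.455). These calls were the least firm among the 8 genes: with –10°C the call was lost under 10 of 24 alternatives and with –10°C/–20°C under 13 of 24, among them leaving out any 1 array of the freezing group compared, or replicate 1 or 2 of 30°C. When name form entered the fit as a block, the log2 fold changes were 0.29 (adjusted p = 0.203) and 0.21 (adjusted p = 0.25).

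Agpat5 was near background, with log2 values of 4.77, 5.13, and 5.21 with 30°C and 5.36, 5.49, and 5.03 with 4°C. With –10°C they were 5.39, 5.201, and 5.54, and with –10°C/–20°C 4.82, 5.31, and 5.19. All 4 groups overlapped. The log2 differences from 30°C were 0.26 (95% interval -0.12 to 0.63), 0.34 (-0.04 to 0.72), and 0.07 (-0.31 to 0.44), with adjusted p of 0.615, 0.316, and 0.872. An increase of the size seen in Agpat2 lies outside each of these intervals, and a low signal can compress a change on this scale.

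The difference between Agpat2 and each of the other acyltransferases was tested within arrays, since both values come from the same RNA. Agpat2 minus Agpat3 on the log2 scale was between -0.27 and 0.17 on the 30°C arrays and between 1.75 and 2.14 on the 9 cold arrays. The shifts from the 30°C mean were 1.998, 1.91, and 2.02. The difference varied with the group (exact permutation test over 369600 arrangements of the 12 arrays, p = 0.00987, adjusted over the 4 pairs of genes tested p = 0.0132). Agpat2 minus Agpat5 shifted by 1.90, 1.94, and 2.25 (exact permutation p = 0.00909, adjusted p = 0.0132). The smallest p that this test can give is 6.49e-05.

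Lpin1 encodes lipin 1, the main phosphatidate phosphatase of fat and muscle, which also acts as a coactivator in the nucleus. It lies on the minus strand of chromosome 12, and its window is chr12:16610967-16611216. The capitals mark AGGTCA, 74 bases before the start.
Lpin1: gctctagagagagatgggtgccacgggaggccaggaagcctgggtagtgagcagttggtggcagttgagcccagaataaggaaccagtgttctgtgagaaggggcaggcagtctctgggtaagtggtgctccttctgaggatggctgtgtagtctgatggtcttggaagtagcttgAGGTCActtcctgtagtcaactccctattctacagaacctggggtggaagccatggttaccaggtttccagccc

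Lpin1 did not follow the order of the temperatures. Its log2 values were 10.29, 10.60, and 10.55 with 30°C and 11.27, 11.13, and 11.21 with 4°C. With –10°C they were 10.56, 10.78, and 10.78, and with –10°C/–20°C 11.97, 11.86, and 11.73. The arrays of –10°C overlapped with 30°C and were wholly below 4°C, and those of –10°C/–20°C were above all others. Lpin1 rose 1.65-fold with 4°C (log2 fold change 0.72 ± 0.11, SE, limma adjusted p = 0.00583) and 2.59-fold with –10°C/–20°C (1.37 ± 0.11, adjusted p = 3.26e-05). The call with 4°C was lost when only the arrays of those groups were fitted (adjusted p = 0.0535). With –10°C the difference from 30°C was 0.23 (95% interval -0.01 to 0.46, adjusted p = 0.277).

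Lpin1 was also the gene among the 8 that passed the test between cold groups. It was 2.22-fold higher with –10°C/–20°C than with –10°C (log2 fold change 1.15 ± 0.11, adjusted p = 0.000405), where 2.02% of all genes were called higher. It was 1.57-fold higher with –10°C/–20°C than with 4°C (0.65 ± 0.11, adjusted p = 0.00362), where 2.53% of all genes were called higher. The call against 4°C was lost within the 8 arrays of the second name form (0.65, adjusted p = 0.131), which hold 1 array of 4°C. With –10°C against 4°C the log2 difference was -0.49, with a 95% interval of -0.73 to -0.26 and an adjusted p of 0.234, in a comparison where 0.0404% of all genes were called. In the order 30°C, –10°C, 4°C, and –10°C/–20°C, only the last step passed the test.

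Lpin2 encodes lipin 2, better known in liver and immune cells. Its log2 values were 5.998, 6.55, and 6.20 with 30°C and 6.02, 6.79, and 5.90 with 4°C. With –10°C they were 5.97, 6.28, and 6.38, and with –10°C/–20°C 5.70, 5.92, and 6.34. All groups overlapped, and the pooled SD within groups, 0.34, was the largest of the 8 genes. The log2 differences from 30°C were -0.01, -0.04, and -0.27, with 95% intervals of -0.55 to 0.53, -0.58 to 0.50, and -0.81 to 0.27. Lpin1 minus Lpin2 shifted from its 30°C mean by 0.73, 0.27, and 1.64, and varied with the group (exact permutation p = 0.00299, adjusted p = 0.0119).

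Dgat1 and Dgat2 encode the enzymes of the last step. They belong to unrelated protein families, and DGAT2 is known for new triglyceride made from fatty acids synthesized in the cell, whereas DGAT1 is known for re-esterification and uptake of fatty acids from outside. Dgat1 had log2 values of 8.46, 9.10, and 8.78 with 30°C and 10.19, 9.90, and 10.12 with 4°C. With –10°C they were 9.96, 10.22, and 9.74, and with –10°C/–20°C 10.53, 10.38, and 10.53. All cold arrays were above 30°C, and those of –10°C/–20°C were above those of the other cold groups. Dgat1 rose 2.45-fold with 4°C (log2 fold change 1.29 ± 0.17, SE, limma adjusted p = 0.00303), 2.29-fold with –10°C (1.19 ± 0.17, adjusted p = 0.00201), and 3.26-fold with –10°C/–20°C (1.70 ± 0.17, adjusted p = 7.13e-05).

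Dgat2 had log2 values of 9.95, 9.93, and 9.87 with 30°C and 11.91, 11.39, and 11.95 with 4°C. With –10°C they were 11.89, 11.60, and 11.73, and with –10°C/–20°C 11.53, 11.29, and 11.34. All cold arrays were above 30°C, and those of –10°C/–20°C were below those of –10°C. Dgat2 rose 3.57-fold with 4°C (log2 fold change 1.83 ± 0.14, adjusted p = 0.000215), 3.54-fold with –10°C (1.82 ± 0.14, adjusted p = 0.000279), and 2.77-fold with –10°C/–20°C (1.47 ± 0.14, adjusted p = 7.57e-05). On the log2 scale the increase with 4°C was 125% of that with –10°C/–20°C for Dgat2 and 75.8% for Dgat1.

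Neither gene alone passed the test between –10°C/–20°C and –10°C, where Dgat1 was 0.51 higher (95% interval 0.14 to 0.87, adjusted p = 0.0953) and Dgat2 0.36 lower (log2 fold change -0.36, 95% interval -0.67 to -0.04, adjusted p = 0.181). The within-array difference Dgat2 minus Dgat1 was 1.498, 0.83, and 1.09 with 30°C and 1.72, 1.49, and 1.84 with 4°C. It was 1.94, 1.38, and 1.99 with –10°C and 0.998, 0.91, and 0.81 with –10°C/–20°C. The arrays of –10°C/–20°C were wholly below those of 4°C and of –10°C and overlapped with 30°C. The difference varied with the group (exact permutation p = 0.0156, adjusted p = 0.0156). Its mean was 0.54 above that of 30°C with 4°C and 0.63 above with –10°C, and with –10°C/–20°C it fell by 0.86 from –10°C. For Dgat2 between –10°C/–20°C and 4°C the log2 fold change was -0.37 (adjusted p = 0.152), and without replicate 2 of 4°C, the lowest of the 4°C and –10°C arrays for this gene, it was -0.55 (adjusted p = 0.0174). Without replicate 1 of 4°C it was -0.29 (limma adjusted p = 0.388), and without replicate 3 it was -0.27 (adjusted p = 0.334).

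**Figure D2:**
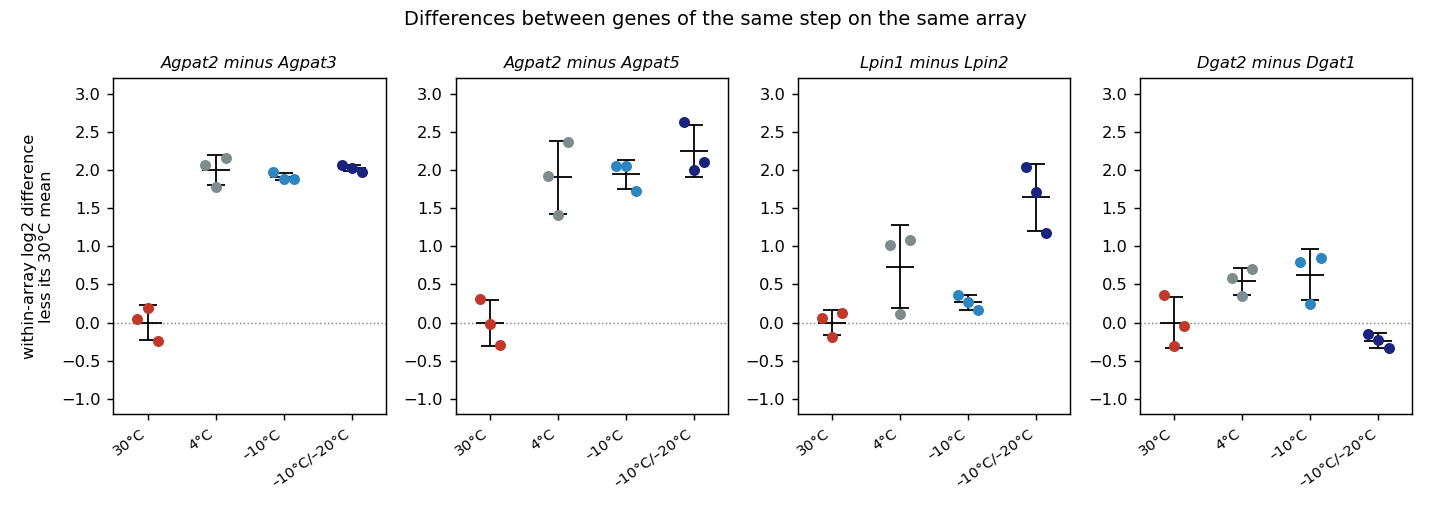
Within-array log2 difference between genes of the same step, less the mean of the 30°C arrays (vertical axis), for the 12 arrays by temperature group (horizontal axis), with black bars for the group mean and SD (n = 3). The Agpat2 differences step up by about the same amount with all cold groups, Lpin1 minus Lpin2 is highest with –10°C/–20°C at a mean shift of 1.64, and Dgat2 minus Dgat1 is above its 30°C mean with 4°C and –10°C and below it with –10°C/–20°C.

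**Figure D3:**
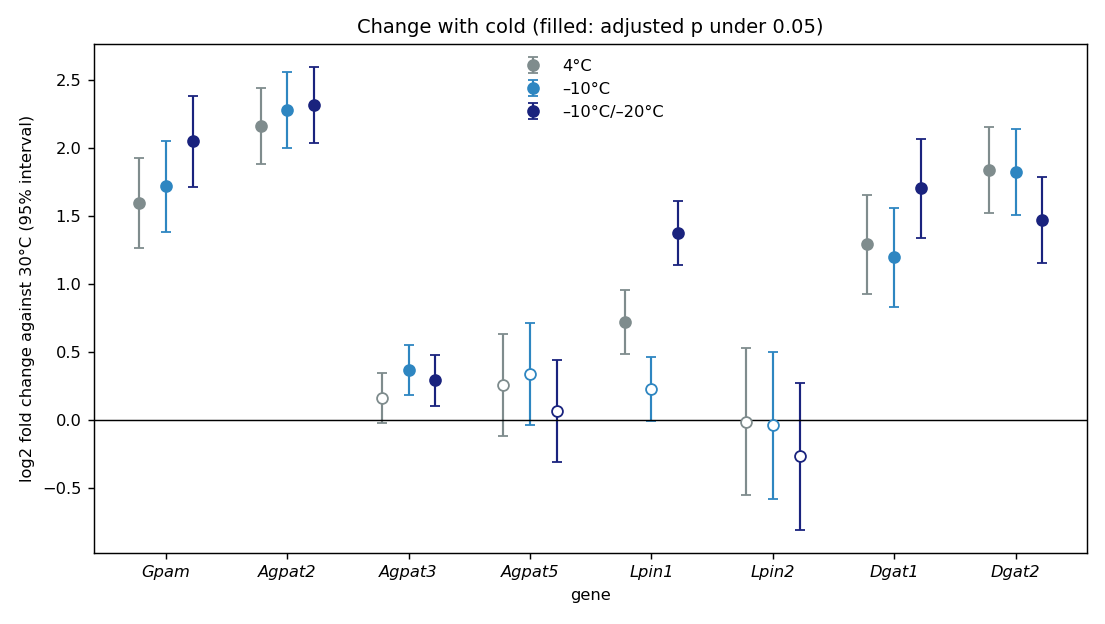
Log2 fold change against 30°C (vertical axis) of the 8 genes (horizontal axis) for the 3 cold groups, with 95% intervals of the limma fit and filled symbols where the adjusted p is under 0.05. Agpat2 has the largest values in all 3 comparisons, 2.16, 2.28, and 2.31, and Lpin1 alone has its –10°C value well below both other cold groups.

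The name forms of the arrays lie across 30°C and 4°C, and the increases with 4°C had the same direction within each form. Among the 4 arrays of the first form and the 8 of the second, they were 1.70 and 1.37 for Gpam, 1.99 and 2.49 for Agpat2, 0.75 and 0.66 for Lpin1, 1.27 and 1.34 for Dgat1, and 1.71 and 2.08 for Dgat2 on the log2 scale. With so few arrays the limma fit called none of these in the first form, while with name form as a block all 5 were called. The second form holds a single array each of 30°C and 4°C, so that only sizes of change are given for it. Both freezing groups lie in the second form. Their log2 fold changes against its single 30°C array were 1.46 and 1.79 for Gpam, 2.41 and 2.44 for Agpat2, 0.16 and 1.31 for Lpin1, 1.19 and 1.70 for Dgat1, and 1.87 and 1.52 for Dgat2.

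The rest of the assembly pathway changed less evenly. For the gene and marker lists from here on, the shares of all genes called higher than with 30°C were 2.1%, 5.3%, and 7.19%. The shares called lower were 0.942%, 3.03%, and 11%. Of 11 other measured enzymes of triglyceride assembly, 3 rose and 1 fell at 4°C, 2 rose and 1 fell at –10°C, and 3 rose and 3 fell in the coldest group, with medians of 0.31, 0.10, and 0.11. Gpat3, a microsomal glycerol 3-phosphate acyltransferase known for adipocytes, was between 8.05 and 8.56 on the 30°C arrays and between 9.70 and 10.17 on the cold arrays. It rose by a log2 fold change of 1.68, 1.47, and 1.71 (adjusted p = 0.000262, 0.000476, and 3.85e-05). Gpat4, the other microsomal enzyme of that step, had group means of 8.53, 9.08, 8.80, and 9.44 from 30°C to –10°C/–20°C, with a dip at –10°C like that of Lpin1. Neither gene was called between –10°C and 4°C. Gpat4 rose by 0.55 with 4°C (adjusted p = 0.00828) and by 0.91 with –10°C/–20°C (adjusted p = 6.98e-05), was 0.27 higher with –10°C (adjusted p = 0.0903), and was 0.64 higher with –10°C/–20°C than with –10°C (adjusted p = 0.00229).

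Mogat1, which makes diacylglycerol from monoacylglycerol and is named after its values were seen, rose by 0.86 with 4°C (adjusted p = 0.0279) and 0.72 with –10°C (adjusted p = 0.0313) and was 0.11 higher with –10°C/–20°C (adjusted p = 0.792). Plpp3, a phosphatase of phosphatidate and related lipids that is not a lipin, fell by 0.71, 0.75, and 0.92 (adjusted p = 0.00507, 0.00176, and 0.000137). Lpgat1, a lysophospholipid acyltransferase, fell by 1.09 with –10°C/–20°C (adjusted p = 0.00908). Plpp2, also a lipid phosphatase, and Lpin3, the remaining lipin, are named after their values were seen. Plpp2 fell by 0.82 with –10°C/–20°C (adjusted p = 0.00345), and Lpin3, near background, rose by 0.32 (adjusted p = 0.0267).

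The supply of the glycerol 3-phosphate backbone included 2 of 6 measured genes that rose with each cold group. These were Gpd1 and Gpd2, the cytosolic and mitochondrial glycerol 3-phosphate dehydrogenases. Gpd1 rose by a log2 fold change of 1.55, 1.91, and 1.59 (adjusted p = 0.00583, 0.00119, and 0.000749). Gpd2 rose by 1.21, 2.23, and 1.81 (adjusted p = 0.0274, 0.000851, and 0.000546), and the range of its 4°C arrays, 8.55 to 9.61, lay above that of 30°C, 7.69 to 8.25. Aqp7, the glycerol channel of adipocytes and named after its values were seen, fell by 0.49 with –10°C/–20°C (adjusted p = 0.0224). Pck1, the enzyme of glyceroneogenesis, did not pass the test in any of the 3, at 0.37, 0.17, and 0.33.

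In the phospholipid branch, 2, 4, and 5 of 16 genes were higher in the 3 cold groups, none lower, and medians of 0.06, 0.18, and 0.16. Pcyt2, the control step of phosphatidylethanolamine synthesis, rose by 0.64, 1.04, and 0.94 (adjusted p = 0.024, 0.00133, and 0.00053). Ptpmt1 and Crls1 belong to cardiolipin synthesis in mitochondria. Ptpmt1 rose by 0.40, 0.68, and 0.60 (adjusted p = 0.044, 0.00201, and 0.00109), and Crls1 by 0.72 with –10°C/–20°C (adjusted p = 0.0211). Pemt, which methylates phosphatidylethanolamine, rose by 0.92 with –10°C (adjusted p = 0.0039).

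In the 3 remaining lists, 1 of 6, 1 of 5, and 1 of 3 genes passed the F-test, against 17.1% of all genes. Of 6 lysophospholipid acyltransferases and tafazzin, Lpcat3 rose with –10°C (0.63, adjusted p = 0.00643) and with –10°C/–20°C (0.43, adjusted p = 0.0208), and Lpcat1, named after its values were seen, fell by 0.50 with –10°C/–20°C (adjusted p = 0.0151). Of 5 diacylglycerol kinases, which turn diacylglycerol back into phosphatidate, Dgkz fell by 0.46 with –10°C/–20°C (adjusted p = 0.00784). Of 3 partners of lipin and seipin, Ctdnep1 and Cnep1r1, which together dephosphorylate lipin 1, did not pass, and Tmem159, a seipin partner on lipid droplets, fell by 0.60 with –10°C and 1.08 with –10°C/–20°C (adjusted p = 0.0105 and 0.000149).

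**Figure D4:**
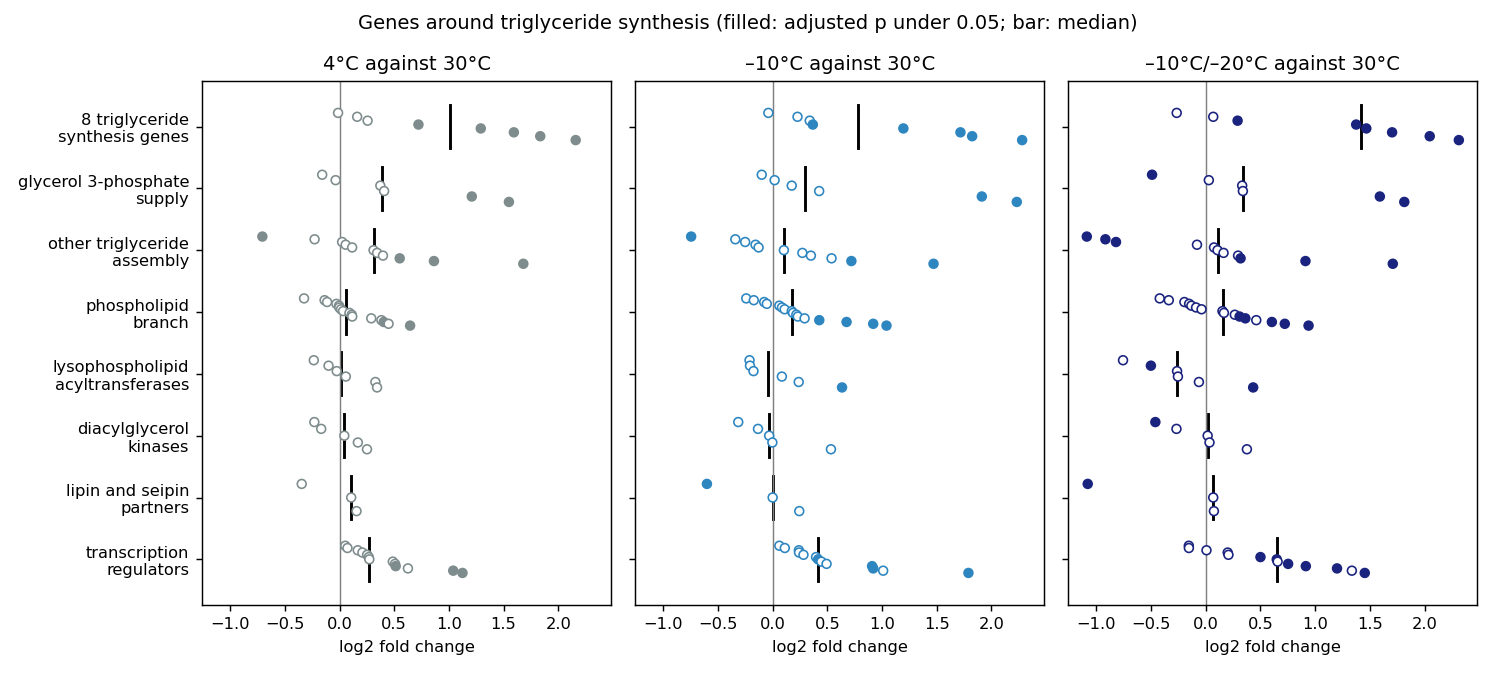
Log2 fold change against 30°C (horizontal axis) of each gene in the 8-gene group and in 7 lists of neighbouring genes (vertical axis), with 1 panel per cold group, filled points where the adjusted p is under 0.05, and a black bar at each list's median. The 8 genes have medians of 1.01, 0.78, and 1.42, and each of the other lists has a median between -0.26 and 0.65.

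Of 13 transcription regulators of lipid synthesis, 3, 4, and 6 rose in the 3 cold groups, and none fell. Nr1h3, the liver X receptor alpha, rose by 0.51, 0.42, and 0.75 (adjusted p = 0.0221, 0.0276, and 0.000449). Insig1, which holds back the processing of sterol regulatory element binding proteins, rose by 1.12, 1.79, and 0.91 (adjusted p = 0.0488, 0.00288, and 0.0356). Its relative Insig2 and the nuclear receptor Ppara rose with –10°C/–20°C, by 1.45 (adjusted p = 0.00077) and 1.2 (adjusted p = 0.000361), and did not pass with 4°C or –10°C. Insig2 was 1.21 higher with –10°C/–20°C than with –10°C (adjusted p = 0.00796). Srebf1, the regulator named for fatty acid synthesis and named here after its values were seen, rose by 1.04 with 4°C (adjusted p = 0.0343) and 0.92 with –10°C (adjusted p = 0.0295). With –10°C/–20°C it was near its 30°C level (log2 fold change -0.15, adjusted p = 0.756) and fell by 1.19 from 4°C (adjusted p = 0.00741) and by 1.07 from –10°C (adjusted p = 0.0179).

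For each of the 6 genes past the F-test, the most alike genes were those with the highest Pearson correlation over the 12 arrays. The triglyceride synthesis genes themselves were left out of this ranking, and all genes named from it passed the F-test. Agpat2 and Dgat2 had an r of 0.968 with each other. The r values describe likeness and take in the step from 30°C to the cold groups. Gpam was most like Pex11a (r = 0.984), a peroxisome membrane protein, and Coasy (0.977), the enzyme that completes coenzyme A. Agpat2 and Dgat2 were both most like Thrsp (0.975 each), a lipogenic protein of fat and liver, whose log2 fold changes were 1.42, 1.68, and 1.42. Agpat2 came next to Emc6 (0.964), and Dgat2 to Rtn4ip1 (0.968). Dgat1 was most like Emc6 (0.983), a subunit of the membrane protein insertion complex of the endoplasmic reticulum, and Pex5 (0.963), the peroxisomal import receptor. Lpin1 was most like Gpat4 (0.967), which rose and dipped with it, and Usp2 (0.955), a deubiquitinase, at 1.2, 0.31, and 1.78. Agpat3 was most like Sdhb (0.978), a subunit of succinate dehydrogenase, and Gatd3a (0.966).

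In whole tissue, fewer cells of a type and less RNA per cell cannot be told apart. Of 9 adipocyte markers, none passed with 4°C or –10°C, and with –10°C/–20°C Pparg rose by 0.50 (adjusted p = 0.0437) and Lep, the leptin gene, fell by 6.48 (adjusted p = 0.000337). Lep then had a mean of 4.30, with 2 of the 3 arrays below background, so that the size of its fall is uncertain. Their summed signal, as log2, was 15.19 to 15.27 with 30°C, 15.24 to 15.34 with 4°C, 15.24 to 15.27 with –10°C, and 15.09 to 15.25 with –10°C/–20°C. Car3 and Retn, with means near 13 in every group, were the brightest of the markers in this sum, and Fabp4 was 0.76 lower with –10°C/–20°C (log2 fold change -0.76, adjusted p = 0.131). Macrophage markers fell, 1, 4, and 6 of 8 with the 3 cold groups, and their summed signal was 12.19 to 12.44 with 30°C, 11.88 to 11.95 with 4°C, 11.37 to 11.62 with –10°C, and 11.18 to 11.39 with –10°C/–20°C. Of 8 stromal and matrix markers, 0, 1, and 4 fell, and their summed signal was 13.24 to 13.57 with 30°C and 12.66 to 12.87 with –10°C/–20°C. Of 9 lymphocyte markers, 0, 1, and 3 fell, and their summed signal was 9.44 to 9.84 with 30°C and 8.45 to 8.74 with –10°C/–20°C. Brown adipocyte markers rose, 1, 3, and 5 of 6, from 7.85 to 7.90 with 30°C to 10.73 to 10.96 with –10°C/–20°C. Of these 6, 3 were below background on all arrays of 30°C and of 4°C. Ucp1 was among them, with means of 3.82, 3.79, 3.92, and 4.37 from 30°C to –10°C/–20°C, all below background. None of 10 epididymis and testis markers passed the test, and 6 or more of them were below background on all arrays of each group. Their summed signal was 7.60 to 7.96 with 30°C, 7.58 to 7.96 with 4°C, and 7.37 to 8.19 with –10°C/–20°C. With –10°C it reached higher, at 7.67 to 9.05. None of the 8 markers of macrophages was below background. The part of these cell types in the results was not tested.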

How the data were processed

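The log2 values deposited by the authors came from RMA, run in Expression Console of Affymetrix per the submitters' processing notes, which normalizes between arrays and summarizes each gene's probes. The sources used here give no tool version or genome build. Of 23332 probe sets, 14996 had 1 symbol, 1019 several, and 7317 none, and the brightest single-symbol probe set per gene was kept. Genes were fitted with limma 3.58.1 (lmFit, eBayes) in R 4.3.3 over all 12 arrays. The procedure was tested on simulated data. Permutation tests, descriptions, and figures used Python 3.11.15, scipy 1.17.1, pandas 2.3.3, numpy 2.4.6, and matplotlib 3.10.9.

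The 8 genes and all lists were chosen with earlier results of these data known. Named were the 8 genes, from each list up to 4 genes past the F-test with the largest change with –10°C/–20°C, and for each gene the 2 most alike. The alternatives covered another eBayes fit, a filter on low values, normalization, centring, array weights, probe sets, blocks, a 2-fold limit, the methods' t-test, and each array left out. Promoters are from RefSeq (GRCm38.p6).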

Additional observations from a re-analysis of the deposited data

How the results depend on the processing

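The calls of Gpam, Agpat2, Dgat1, and Dgat2 against 30°C kept their direction under all alternatives, as did those of Agpat3 and Lpin1. With 1 array left out, 5 to 6 of the 8 genes passed the F-test, 5 rose with 4°C, 4 to 5 rose with –10°C, 5 to 6 rose with –10°C/–20°C, and 1 to 2 differed between –10°C/–20°C and 4°C. Without replicate 2 of 4°C, the second was Dgat2. The methods' t-test after adjustment called 0, 2, and 5 of the 8 against 30°C from 4°C down to –10°C/–20°C, and 0 between –10°C/–20°C and each other cold group. It called 0, 19, and 593 of all 14860 genes against 30°C. Before adjustment it called 5, 5, and 6 of the 8 and 1611, 2537, and 3354 of all genes. Between cold groups, also before adjustment, it called 2 of the 8 (–10°C against 4°C), 3 (–10°C/–20°C against 4°C), and 3 (–10°C/–20°C against –10°C). In these comparisons it called 1188, 2677, and 2733 of all genes. The 8 arrays of the second name form, a choice made after seeing the data, hold a single array each of 30°C and 4°C. Calls in that form that involve either group are not counted here. Within the 4 arrays of the first form, 0 were called with 4°C.

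With array weights, whose estimation stopped before convergence, 1 was called between –10°C and 4°C (Lpin1), 3 between –10°C/–20°C and –10°C (Lpin1, Dgat1, and Dgat2), and 2 between –10°C/–20°C and 4°C (Lpin1 and Dgat2), in comparisons where that setting called 49, 2006, and 2474 of all genes. With each array centred on its median, which moved the median of all genes with –10°C/–20°C from -0.03 to 0.13, 2 were called between –10°C/–20°C and –10°C (Lpin1 and Dgat1) and 2 between –10°C/–20°C and 4°C (Lpin1 and Gpam), where it called 824 and 1301 of all genes. With a 2-fold limit, 0 were called in the latter.

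In the comparisons with the thermoneutral group, values that changed sign belonged to Agpat5 and Lpin2, which were not called. Agpat5 with –10°C/–20°C was -0.10 in the 8 arrays and -0.065 to 0.21 with 1 array left out, among them -0.03 without replicate 2 of its own group, and with 4°C it was -0.18 in the 8 arrays. Lpin2 with –10°C was 0.16 with the name form as a block, 0.014 in the 8 arrays, and -0.17 to 0.11 with 1 array left out. With 4°C it was 0.13 in the 4 arrays and -0.29 to 0.16 with 1 array left out. Between –10°C and 4°C, small differences of Gpam, Dgat1, and Dgat2 also changed sign, and none of these was called. Gpam was 0.12 in the main fit and -0.02 with the name form as a block. Dgat1 was -0.10 and, without replicate 3 of –10°C, 0.02. Dgat2 was -0.01 and, without replicate 1 of 4°C, 0.07. The causes were not tested.

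The replicate numbers are shared between groups, and the correlation of deviations was -0.39 to 0.54 (median 0.20) over 18 same-numbered pairs of arrays and -0.73 to 0.60 (median -0.16) over 36 others. As not every same-numbered pair exceeded 0.1, the numbers were not taken to pair the samples. Between –10°C and –10°C/–20°C all 3 pairs did, and Lpin1 was the gene called there with the replicate block too. With the replicate block the counts were 6 for the F-test and 5, 5, and 6 against 30°C, as without it, and the 4 within-array differences had adjusted exact permutation p of 0.0243 to 0.0382. Agpat5 had the signal nearest to background among the 8 genes.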
